A study of Bos taurus with 12 samples.

Results

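The antioxidant and glutathione enzymes of the bovine corpus luteum were taken here as every gene on the array whose symbol names a glutathione transferase, microsomal glutathione transferase, glutathione peroxidase, peroxiredoxin, superoxide dismutase, thioredoxin-family protein, glutaredoxin, NQO quinone reductase or HMOX haem oxygenase, or an enzyme of glutathione synthesis or reduction. The choice used names only and no measured value, though it was made with earlier results of these data known. It gave 45 probes of 44 genes, of 15208 probes and 14866 genes on the array. For 35 probes the name stood in the gene field, for 7 in the accession or description, and for 3 in a gene number or older symbol. After a filter on dim probes 42 of the 44 genes were tested, of 12315 genes in all. GLRX3 was well above background on 0 of 12 arrays and GPX5 on 1 of 4 P18 arrays, 0 of 4 P15 arrays and 2 of 4 NP15 arrays, so these were not tested. CAT, GSR and GCLC, which the rule would also have taken, had no probe under those names.

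Total RNA of the corpus luteum of Japanese Black cows was measured on one-colour (Cy3) Agilent arrays, 1 array per sample and 12 in all. P18 is day 18 of gestation, P15 is day 15 of gestation and NP15 is day 15 of the estrous cycle in cows that were not pregnant, with 4 animals each, and the day of insemination was counted as day 1. All 12 were taken from cows in vivo, with no transgene or drug named, so the groups differ by pregnancy and by day. The P18 arrays lay on a slide of their own and the P15 and NP15 arrays shared the other slide, P15 and NP15 in different slide rows. In any comparison with P18 the group cannot be told apart from the slide, and in any comparison with NP15 it cannot be told apart from the slide row. All 8 luteal cell markers tested, STAR and CYP11A1 among them, were well above background on all 12 arrays.

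The corpus luteum makes progesterone from cholesterol with mitochondrial cytochrome P450 enzymes that leak electrons to oxygen, and it is known for high levels of antioxidant enzymes. Superoxide dismutases turn superoxide into hydrogen peroxide, which peroxiredoxins and glutathione peroxidases reduce to water. Peroxiredoxins are recharged by thioredoxin and thioredoxin reductase, glutathione peroxidases by glutathione, and both chains draw on NADPH. Glutathione transferases attach glutathione to lipid aldehydes and other electrophiles, and NQO1 and HMOX1 are classical targets of the transcription factor NRF2.

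Each gene was read by a probe of 60 bases, and 6 probes are shown because the results below set close relatives apart. The thioredoxin reductase TXNRD3 passed the test described below and its mitochondrial relative TXNRD2 did not. The peroxidase GPX4 passed and GPX3 did not. PRDX2 is shown because its probe shares a longer run of bases with that of TXNRD3 than TXNRD2 does, and NQO1 as the quinone reductase that passed. Capitals mark the longest run that each probe shares with the probe of any other member, read 5′ to 3′ as deposited.
TXNRD3: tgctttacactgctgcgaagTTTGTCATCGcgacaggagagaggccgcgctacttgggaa
TXNRD2: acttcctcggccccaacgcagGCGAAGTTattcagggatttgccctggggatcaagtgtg
PRDX2: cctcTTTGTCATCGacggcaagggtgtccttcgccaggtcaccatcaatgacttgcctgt
GPX4: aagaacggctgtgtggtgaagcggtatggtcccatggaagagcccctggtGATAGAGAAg
GPX3: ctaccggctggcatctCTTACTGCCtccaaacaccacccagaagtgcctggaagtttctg
NQO1: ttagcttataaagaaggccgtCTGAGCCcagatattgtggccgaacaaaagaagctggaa
The run shared by the TXNRD3 and PRDX2 probes was 10 bases long, and that shared by TXNRD2 with TXNRD3 was 8. Over all 45 probes the longest shared run was 14 bases, between TXNL4A and TXNDC12, and the GC content was 33.3% to 60%. No probe was aligned to the transcripts of paralogs, so the GSTA, GSTM and GSTP probes in particular may bind more than 1 family member.

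Values below are log2 processed signals minus the 75th percentile of the same array, called log2 values, so a value of 1 means a signal 1 log2 unit above that percentile. A probe's own brightness enters the value, so levels were compared between groups for 1 probe and never between probes. Differences are in log2 units with their standard error (SE), from limma fitted on all 12315 genes over all 12 arrays, and adjusted p-values are limma's with Benjamini-Hochberg adjustment over all those genes. A gene is said to have risen or fallen where that adjusted p was under 0.05. The 3 comparisons share arrays, so their values stand side by side and are not independent of each other.

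In P18 against NP15, 13 of 42 antioxidant genes passed the threshold, which is 31% of them, against 28.9% of all genes tested. The share was near the background, so the number of calls is not a result about these genes. In bulk tissue, fewer cells of a type and less RNA per cell cannot be told apart. GSTM1, GSTA4, TXNDC17, TXNDC12, GPX4, GCLM and TXNL4A rose, 7 genes, where 10.4% of all genes rose. TXNRD3, NQO1, GSTK1, GSS, ERP44 and TXNL4B fell, 6 genes, where 18.6% of all genes fell. TXNRD3 and GSTK1 were well above background on 1 of 4 P18 arrays and were kept through the groups where they were high, so their presence among the calls is not evidence on these genes as a set. In P18 against P15, 12 of 42 passed, or 28.6%, against 28.3% of all genes. There 9 rose, with 12.8% of all genes, and 3 fell, with 15.5% of all genes. Over probes well above background on all 12 arrays, which leave out TXNRD3 and GSTK1, 12 of 40 members passed relative to NP15 and 13 of 40 relative to P15, beside 27.3% and 26.5% of 9602 genes. In P15 against NP15 none of the 42 passed, against 1.01% of all genes, and 5 had an unadjusted p under 0.05, against 8.75% of all genes. The median difference over the members was 0.08 in P18 against NP15, 0.10 in P18 against P15 and -0.03 in P15 against NP15, beside medians over all genes of -0.06, -0.03 and -0.06.

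The split between higher and lower moved with the scaling of the arrays. Centring each array on its median in place of its 75th percentile shifted all genes up by 0.24 in P18 against NP15 and by 0.23 in P18 against P15. Under it 15 members rose and 3 fell in P18 against NP15, and 17 rose and 2 fell in P18 against P15. Over all genes the share of calls that were higher was then 67.6% in place of 35.8%, and 72.8% in place of 45.3%. With the normexp background correction, which models the local background of each spot, it was 56.5% and 61.7%. Median centring added calls for GLRX, GSTA2, GSTP1, MGST2, PRDX1, PRDX6, SOD1 and TXNL1 in P18 against NP15. In P18 against P15 it added GCLM, GLRX, GSTP1, HMOX1, NQO2, PRDX2, SOD1 and TXNL1. Changes below are relative to the 75th percentile, and the scaling is named where it ended a call. A gene said below to pass no test is one that did not pass with that scaling on all arrays.

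The array of NP15 replicate 4 stood apart from the other 11. In blocks of 24 rows and 20 columns, the median deviation of its probes from the other 3 NP15 arrays ran from -1.69 to 0.40, and 9 of 40 blocks lay below -0.3. The 11 other arrays, set against their own groups in the same way, had block medians from -0.50 to 0.23, with 0 to 5 blocks below -0.3. The low blocks of NP15 replicate 4 formed a patch of rows 73 to 144 and columns 21 to 60 and a strip at columns 81 and 82. Of the 9 antioxidant genes over 0.3 below the other NP15 arrays there, 6 had neighbouring probes whose median was also over 0.3 below, namely GSTA2, MGST3, GPX3, TXN2, GLRX and MGST1. MGST3 was at 0.62 on this array against 2.69 to 2.89 on the other 3 NP15 arrays, and its 113 neighbours had a median deviation of -1.62. PRDX6, at row 25 and column 82 in the strip, was at 1.67 against 3.09 to 3.46. The strip had a median deviation of -1.17 in rows 25 to 48. The median over the 62 neighbours of PRDX6 was 0.24, but they were taken up to 10 columns away. So neither that median nor the position adjustment described below isolates the strip. This array held the highest NP15 value for 20 of 41 members, or 48.8%, beside 46.4% of all genes, and the lowest for 10 of 41. For the 9 members over 0.3 lower on this array, and for some others, values are also given without it or with the position adjustment. That adjustment is the subtraction of the local median of each array (within 3 rows and 10 columns).

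**Figure D1:**
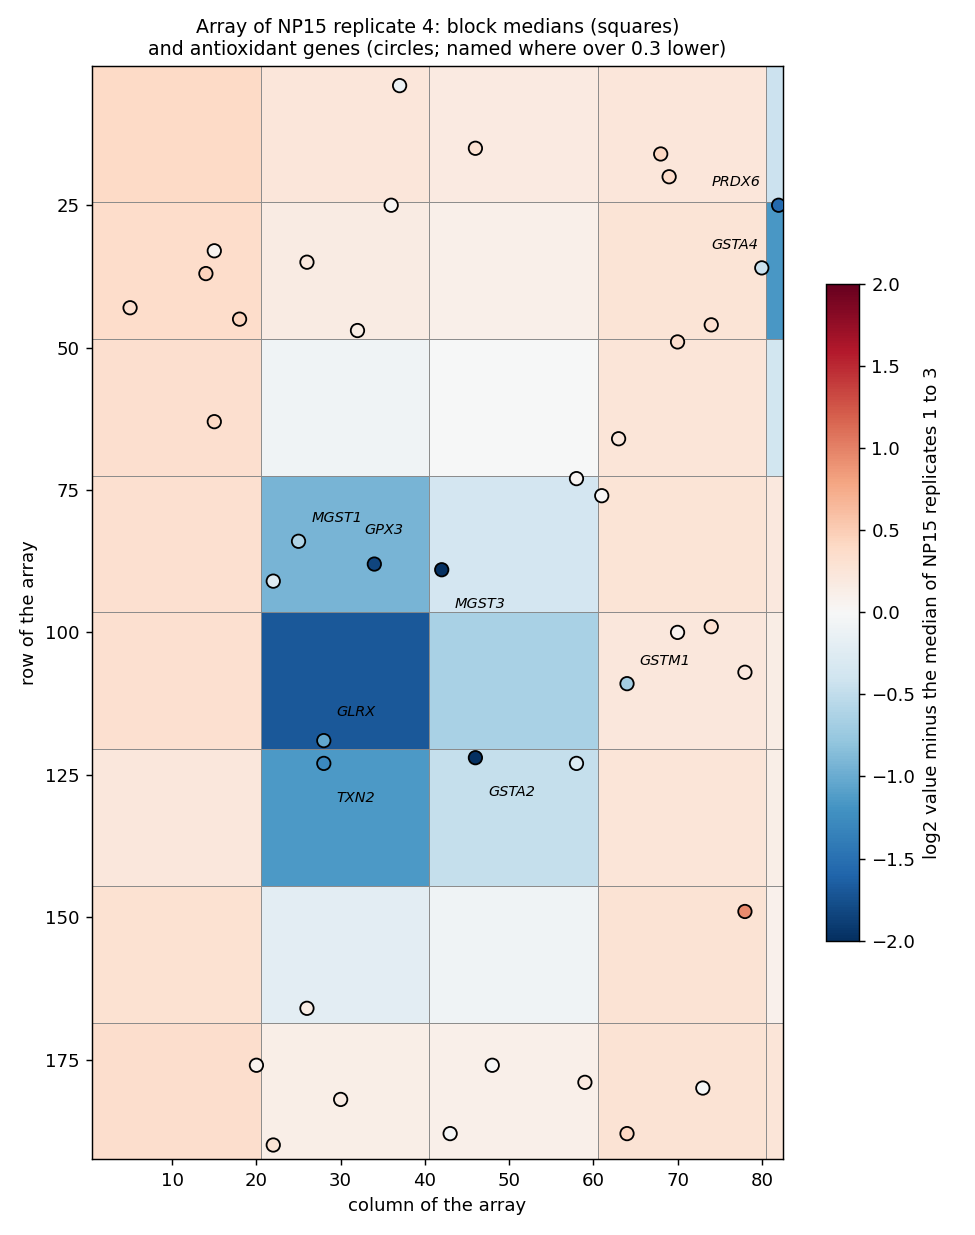
Map of the array of NP15 replicate 4, with array columns on the x axis and array rows on the y axis. Squares are block medians and circles are antioxidant genes, both coloured by the log2 value minus the median of NP15 replicates 1 to 3 on a scale that ends at 2 either way. The lowest block median is -1.69, and the dim patch holds GPX3, MGST3, GLRX, TXN2 and GSTA2, while PRDX6 sits in the strip at the right edge.

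**Figure D2:**
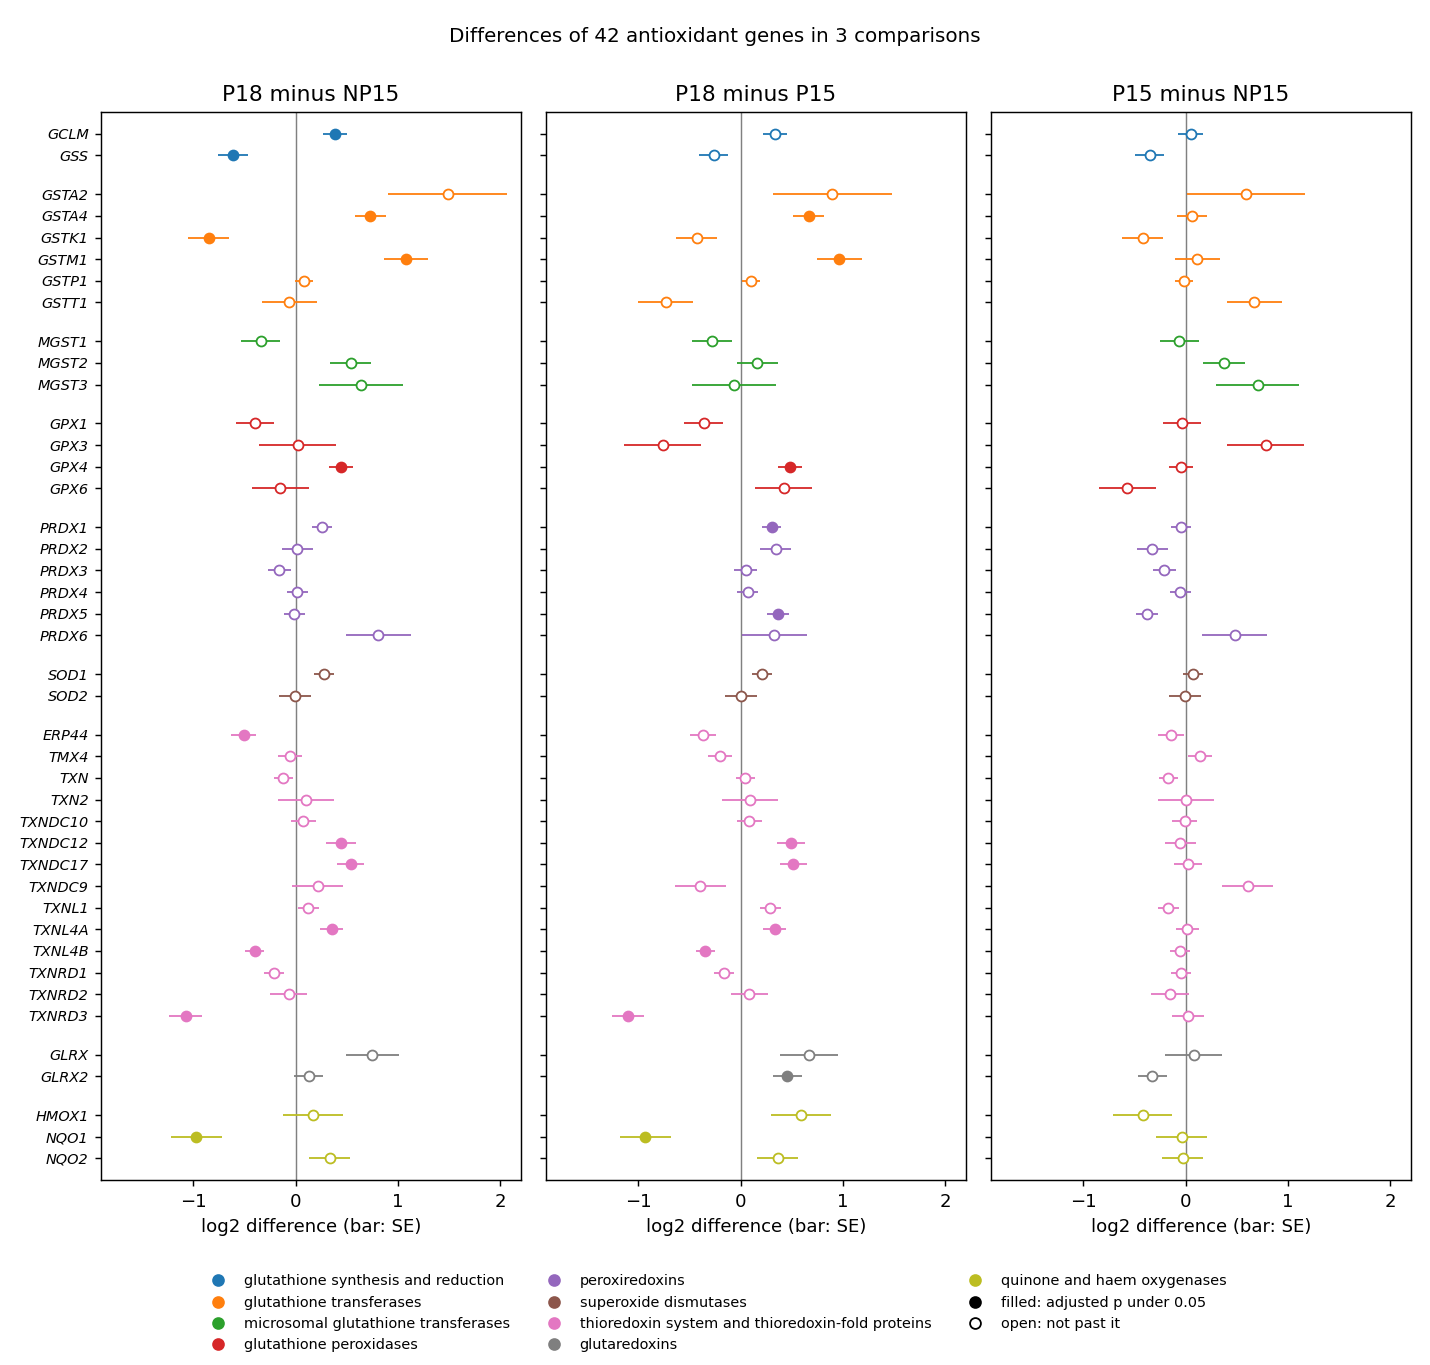
Log2 difference of each of the 42 tested genes (x axis, bars are SE) by gene and enzyme class (y axis), for P18 minus NP15, P18 minus P15 and P15 minus NP15. Filled points have an adjusted p under 0.05: 13, 12 and 0 genes in the panels from left to right.

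Of the enzymes that make glutathione, GCLM rose and GSS fell at day 18 of gestation relative to NP15, and on all arrays neither passed the test relative to P15. GCLM encodes the modifier subunit of glutamate-cysteine ligase, the enzyme of the first step of synthesis. It had log2 values of 1.19, 0.96, 1.49 and 1.13 in P18, against 0.73, 0.96, 0.90 and 0.84 in P15 and 0.89, 0.87, 0.72 and 0.75 in NP15. All P18 values lay above all NP15 values, and the lowest P18 value was close to the highest P15 value. The difference was 0.38 (SE 0.12, adjusted p = 0.0327) for P18 minus NP15 and 0.34 (SE 0.12, adjusted p = 0.0566) for P18 minus P15. The GCLM call was lost without any one of NP15 replicates 2, 3 and 4 and P18 replicates 1, 3 and 4, with differences of 0.28 to 0.40 and adjusted p of 0.0504 to 0.0828, and under the position adjustment (0.15, adjusted p = 0.366), its spot being in row 4. The GCLM difference from P15 passed under the position adjustment (0.45, adjusted p = 0.0138), without NP15 replicate 4 (0.34, adjusted p = 0.0486) and without P18 replicate 2 (0.41, adjusted p = 0.0278). With quantile normalization the GCLM difference from NP15 was 0.33 (adjusted p = 0.0616). GSS encodes glutathione synthetase, which completes the tripeptide. Its values were -1.31, -1.06, -1.18 and -1.14 in P18, against -0.94, -0.64, -0.79 and -1.27 in P15 and -0.41, -0.62, -0.76 and -0.45 in NP15. P18 lay wholly below NP15, and P15 spread from the P18 range to the NP15 range. GSS fell by 0.61 (SE 0.14, adjusted p = 0.00815) in P18 relative to NP15, or 1.53-fold, and differed by -0.26 (adjusted p = 0.193) from P15, which became -0.39 (adjusted p = 0.0462) without P15 replicate 4. With median centring the GSS difference from NP15 was -0.37 (adjusted p = 0.0661).

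Among the cytosolic glutathione transferases, GSTM1 and GSTA4 rose in P18 relative to both other groups, under each alternative tried. GSTM1, of the mu class, had log2 values of 2.84, 2.77, 3.18 and 3.15 in P18, against 1.86, 2.18, 1.92 and 2.11 in P15 and 1.90, 2.48, 1.96 and 1.28 in NP15. The P18 values were above every P15 and NP15 value, and the lowest NP15 value was that of replicate 4. The rise was 2.12-fold relative to NP15 (1.08, SE 0.22, adjusted p = 0.00376) and 1.95-fold relative to P15 (0.97, SE 0.22, adjusted p = 0.0072). Without NP15 replicate 4 the GSTM1 difference from NP15 was 0.87 (adjusted p = 0.0037). GSTA4, an alpha-class enzyme that conjugates the lipid peroxidation product hydroxynonenal, was at 2.82, 2.82, 2.96 and 2.87 in P18, against 2.42, 2.32, 2.01 and 2.05 in P15 and 2.13, 2.47, 2.19 and 1.76 in NP15. Its groups separated in the same way, and the 4 P18 values spanned less than those of either other group (SD 0.06, 0.20 and 0.29). The rise was 0.73 (SE 0.15, adjusted p = 0.00436) relative to NP15 and 0.67 (SE 0.15, adjusted p = 0.00742) relative to P15. Without NP15 replicate 4 the GSTA4 difference from NP15 was 0.60 (adjusted p = 0.0056). GSTK1, the kappa-class enzyme of mitochondria and peroxisomes, had lower values in P18. It was a dim probe, well above background on 1 of 4 P18 arrays and on all P15 and NP15 arrays. Its values were -5.84, -6.36, -6.64 and -6.56 in P18, against -5.66, -5.89, -5.93 and -6.21 in P15 and -5.46, -5.70, -5.12 and -5.73 in NP15. P18 lay below NP15 on every array and overlapped P15. The GSTK1 difference in processed signal was -0.85 relative to NP15 and -0.43 relative to P15. With P18 near background its size is not exact, and although the probe passed the threshold relative to NP15 (adjusted p = 0.00906), it was kept through the other groups. With the normexp background correction the GSTK1 difference from NP15 was 0.04 (adjusted p = 0.856), so its direction depended on the background treatment.

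GSTA2, an alpha-class transferase, did not pass the threshold. It stood at 3.52, 3.87, 3.49 and 3.51 in P18, against 3.37, 2.51, 2.95 and 1.99 in P15 and 2.67, 3.56, 2.07 and 0.15 in NP15. The P18 values were close together and above all P15 values, while NP15 had the widest spread of any member (SD 1.44), with replicate 4 lowest and replicate 2 inside the P18 range. GSTA2 differed by 1.49 (SE 0.58, adjusted p = 0.077) from NP15, by 0.83 (adjusted p = 0.111) without NP15 replicate 4, by 1.97 (adjusted p = 0.0212) without NP15 replicate 2 and by 1.39 (adjusted p = 0.0219) with the position adjustment. GSTT1, of the theta class, was at 1.04, 1.10, 0.50 and 0.61 in P18, against 1.38, 1.43, 1.78 and 1.59 in P15 and 1.62, 0.99, 0.14 and 0.74 in NP15. P15 lay above P18 on every array and NP15 overlapped both. Its difference was -0.73 (SE 0.27, adjusted p = 0.063) for P18 minus P15, 0.67 (SE 0.27, adjusted p = 0.475) for P15 minus NP15 and -0.06 (adjusted p = 0.889) for P18 minus NP15. Without NP15 replicate 1 or 3 the GSTT1 difference between P18 and P15 had an adjusted p of 0.0260 to 0.0266. GSTP1, of the pi class, lay between 3.05 and 3.19 in P18, 2.97 and 3.10 in P15 and 2.96 and 3.15 in NP15, with a difference of 0.08 (SE 0.09, adjusted p = 0.504) for P18 minus NP15. Under the position adjustment that GSTP1 difference was 0.31 (SE 0.07, adjusted p = 0.0070), and it also passed with median centring.

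None of the 3 microsomal glutathione transferases, membrane proteins of a separate fold, passed the threshold. MGST2 was read by 2 kept probes. The brighter gave 0.32, 0.10, -0.42 and 0.04 in P18, against 0.29, -0.19, -0.58 and -0.13 in P15 and -0.51, -0.35, -0.82 and -0.43 in NP15. The other gave 0.12, -0.02, -0.51 and -0.03 in P18, against 0.07, -0.34, -0.59 and 0.06 in P15 and -0.55, -0.33, -0.66 and -0.15 in NP15. Replicate 3 was lowest in all 3 groups on both probes, and the groups overlapped. MGST2 differed by 0.54 (SE 0.20, adjusted p = 0.0681) between P18 and NP15, and passed without P15 replicate 1 or P18 replicate 3 (0.54 to 0.68, adjusted p 0.0309 to 0.0485), under the position adjustment (0.60, adjusted p = 0.0271) and with median centring. MGST1 had 1.88, 1.37, 1.91 and 1.68 in P18, against 1.80, 2.39, 1.91 and 1.85 in P15 and 2.26, 1.98, 2.33 and 1.63 in NP15, and differed by -0.34 (adjusted p = 0.212) between P18 and NP15, by -0.48 (adjusted p = 0.0652) without NP15 replicate 4 and by -0.39 (adjusted p = 0.0717) with the position adjustment. MGST3 had 3.03, 2.63, 2.96 and 2.88 in P18, against 3.002, 2.88, 2.90 and 2.98 in P15. In NP15 it had 2.75, 2.89, 2.69 and 0.62, the last from the array with the dim patch. The MGST3 difference between P18 and NP15 was 0.64 (SE 0.41, adjusted p = 0.27) on all arrays, 0.10 (SE 0.11, adjusted p = 0.516) without NP15 replicate 4 and 0.32 (SE 0.14, adjusted p = 0.0923) with the position adjustment.

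GPX4 was the only glutathione peroxidase of the 4 tested that passed the threshold, and it rose in P18 relative to both other groups under every alternative tried. GPX4 is the selenoenzyme that reduces lipid hydroperoxides within membranes and holds back ferroptosis. Its log2 values were 4.53, 4.54, 4.65 and 4.42 in P18, against 4.15, 4.14, 3.84 and 4.08 in P15 and 4.16, 4.01, 3.90 and 4.33 in NP15. The lowest P18 value exceeded the highest value of either other group. The difference was 0.44 (SE 0.12, adjusted p = 0.0167) relative to NP15 and 0.48 (SE 0.12, adjusted p = 0.0107) relative to P15, which are 1.36-fold and 1.40-fold. GPX3, the secreted plasma form, had -1.25, -1.37, -1.79 and -1.78 in P18, against -0.44, -0.81, -0.89 and -1.01 in P15 and -0.75, -1.02, -1.66 and -2.85 in NP15. P18 lay below P15 on every array, and NP15 overlapped both groups. GPX3 differed by -0.76 (SE 0.38, adjusted p = 0.159) between P18 and P15. Without NP15 replicate 4, whose patch held the GPX3 spot and which enters the shared estimate of the spread, the same difference had an adjusted p of 0.0204, and with the position adjustment it was -0.76 (adjusted p = 0.0150). Between P15 and NP15 GPX3 differed by 0.78 (adjusted p = 0.611) on all arrays and by 0.36 (adjusted p = 0.727) without that array. GPX1, the abundant cytosolic form, ranged from 1.71 to 2.05 in P18, 1.93 to 2.50 in P15 and 1.84 to 2.71 in NP15, with a difference of -0.40 (adjusted p = 0.134) between P18 and NP15. Without NP15 replicate 3 that GPX1 difference was -0.55 (adjusted p = 0.0422). GPX6 ranged from -3.75 to -3.26 in P18, -4.30 to -3.65 in P15 and -4.13 to -2.55 in NP15 and passed no test.

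Of 6 peroxiredoxins, PRDX1 and PRDX5 rose in P18 relative to P15, none passed relative to NP15 on all arrays, and PRDX3 of the mitochondria and PRDX4 of the endoplasmic reticulum passed no test. PRDX1, a cytosolic peroxidase, had log2 values of 5.17, 5.24, 5.22 and 5.14 in P18, against 4.86, 4.96, 4.85 and 4.88 in P15 and 4.83, 4.90, 4.85 and 5.16 in NP15. P18 was above all P15 values and above NP15 replicates 1 to 3, and NP15 replicate 4 fell within the P18 range. The rise relative to P15 was 0.30 (SE 0.10, adjusted p = 0.0343), and the call was lost on leaving out any 1 of the 8 P18 and P15 arrays (0.29 to 0.33, adjusted p 0.0524 to 0.0828). The PRDX1 difference from NP15 was 0.26 (SE 0.10, adjusted p = 0.0646), 0.33 (adjusted p = 0.0082) without NP15 replicate 4 and 0.26 (adjusted p = 0.0292) with the position adjustment.

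PRDX5, found in mitochondria and peroxisomes, had 3.79, 3.60, 3.51 and 3.70 in P18, against 3.27, 3.39, 3.34 and 3.15 in P15 and 3.50, 3.70, 3.77 and 3.68 in NP15. P15 was below both other groups on every array, and P18 and NP15 overlapped. The rise relative to P15 was 0.37 (SE 0.10, adjusted p = 0.0214), and P15 minus NP15 was -0.38 (SE 0.10, adjusted p = 0.176), the smallest p of any member in that comparison. The PRDX5 spot lay in row 188 of 192, among the last 24 rows, where the median over all genes of P15 minus NP15 was -0.25. With the position adjustment PRDX5 differed by 0.18 (adjusted p = 0.158) between P18 and P15 and by 0.04 (adjusted p = 0.985) between P15 and NP15. Its call was also lost with quantile normalization (0.20, adjusted p = 0.195) and without P15 replicate 4, P18 replicate 1 or P18 replicate 4 (0.32 to 0.35, adjusted p 0.0523 to 0.0611). PRDX6, a peroxidase that also cleaves phospholipids, had 3.49, 3.57, 3.76 and 3.87 in P18, against 3.30, 3.52, 3.26 and 3.29 in P15 and 3.46, 3.23, 3.09 and 1.67 in NP15. The lowest P18 value was just above the highest NP15 value. PRDX6 differed by 0.81 (SE 0.32, adjusted p = 0.0766) between P18 and NP15, by 0.41 (SE 0.13, adjusted p = 0.0345) without NP15 replicate 4, and by 1.01 (adjusted p = 0.0431) without NP15 replicate 1. With the position adjustment, which does not isolate the strip that held its spot, it was 0.76 (SE 0.35, adjusted p = 0.119). PRDX2, cytosolic like PRDX1, ranged from 1.04 to 1.60 in P18, 0.93 to 1.02 in P15 and 0.92 to 1.56 in NP15.

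Neither superoxide dismutase passed the threshold. SOD1, the cytosolic copper-zinc enzyme, had 3.89, 3.91, 4.11 and 3.99 in P18, against 3.76, 3.90, 3.79 and 3.62 in P15 and 3.75, 3.56, 3.72 and 3.74 in NP15. All P18 values exceeded all NP15 values, and P15 reached into the P18 range with 1 array. SOD1 differed by 0.28 (SE 0.10, adjusted p = 0.052) between P18 and NP15, which passed without NP15 replicate 4 (0.30, adjusted p = 0.0475), without P15 replicate 4 (0.28, adjusted p = 0.0490) and with the position adjustment (0.33, adjusted p = 0.0163). With median centring the SOD1 difference was 0.52 (adjusted p = 0.00307) from NP15 and 0.43 (adjusted p = 0.00742) from P15. SOD2, the manganese enzyme of mitochondria, ranged from 5.58 to 5.92 in P18, 5.63 to 5.80 in P15 and 5.22 to 5.94 in NP15. The means of SOD2 were 5.71 ± 0.15, 5.71 ± 0.09 and 5.72 ± 0.33 (SD, n = 4 each), so its differences were within 0.01 with an SE of 0.16.

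**Figure D3:**
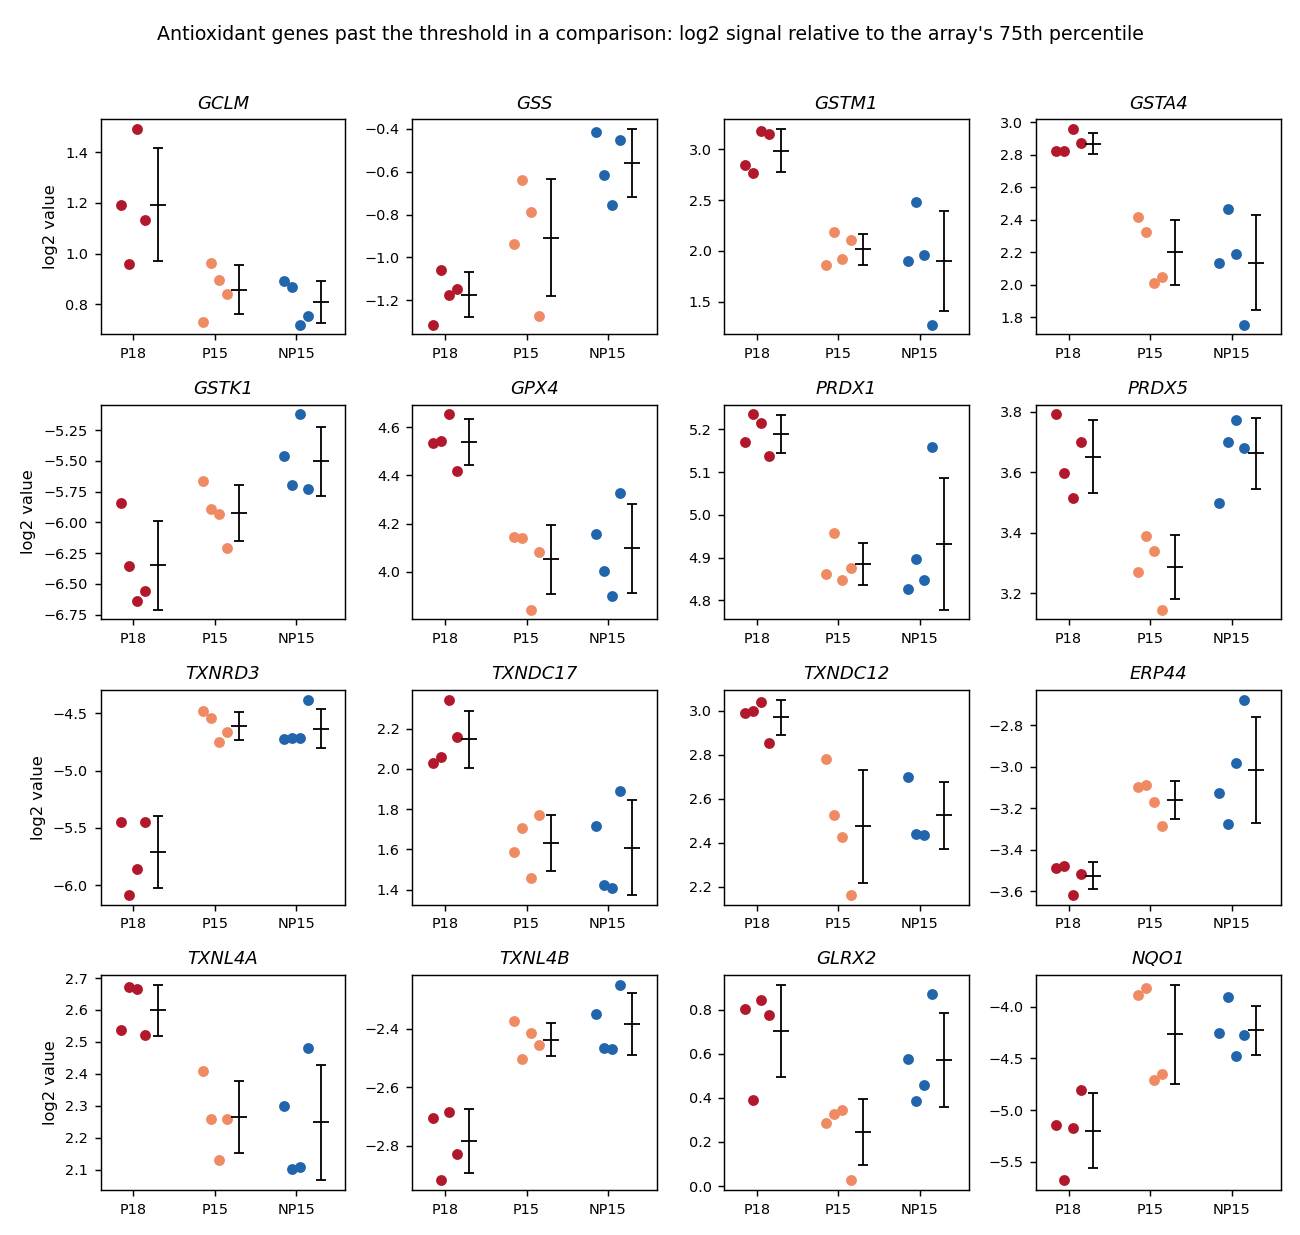
Log2 value (y axis, signal relative to the 75th percentile of the array) on each array of P18, P15 and NP15 (x axis) for the 16 genes that passed the threshold in either P18 comparison. Points are arrays and bars are the mean and SD of 4, or of 3 for TXNDC12 in NP15. GSTM1, GSTA4, GPX4 and TXNDC17 lie higher in P18 than on any other array, and TXNRD3, TXNL4B and ERP44 lie lower.

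In the thioredoxin system, the reductase TXNRD3 had lower values in P18 than in both other groups, at a level near background. TXNRD3 is the thioredoxin-glutathione reductase, best known from mammalian testis. Its log2 values were -5.45, -6.09, -5.86 and -5.45 in P18, against -4.48, -4.54, -4.75 and -4.66 in P15 and -4.73, -4.72, -4.71 and -4.38 in NP15. Every P18 value was below every P15 and NP15 value. It was well above background on 1 of 4 P18 arrays and on all P15 and NP15 arrays, and was kept through those groups, so the size of the difference is not exact. The difference in processed signal was -1.08 relative to NP15 and -1.10 relative to P15, past the threshold in both. With normexp the TXNRD3 differences were -0.38 (adjusted p = 0.0435) and -0.44 (adjusted p = 0.0241). The net signal of the negative controls was 78.8 to 92.2 on the P18 arrays, against 32.1 to 36.4 on P15 arrays and 34.7 to 38.5 on NP15 arrays. The part of that background in the results of dim members was not tested beyond the normexp values. TXNRD1, the cytosolic reductase, ranged from 0.96 to 1.23 in P18, 1.23 to 1.38 in P15 and 1.24 to 1.45 in NP15, with P18 just below NP15 on every array and a difference of -0.21 (SE 0.10, adjusted p = 0.13). TXNRD2, its mitochondrial relative, ranged from -1.70 to -0.77 in P18, -1.58 to -1.03 in P15 and -1.25 to -1.05 in NP15, with a difference of -0.07 (SE 0.18, adjusted p = 0.811). The thioredoxins they serve passed no test. TXN of the cytosol ranged from 3.77 to 3.93 in P18, 3.73 to 3.93 in P15 and 3.89 to 4.12 in NP15. TXN2 of the mitochondria ranged from 1.83 to 2.14 in P18, 1.51 to 2.01 in P15 and 0.85 to 2.28 in NP15, the lowest again on NP15 replicate 4. TXN2 differed by 0.10 (adjusted p = 0.82) between P18 and NP15, by -0.23 (adjusted p = 0.212) without that array and by 0.07 (adjusted p = 0.671) with the position adjustment.

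Of the other thioredoxin-fold proteins, 3 rose and 2 fell in P18 relative to NP15. TXNDC17, a small cytosolic oxidoreductase, had 2.03, 2.06, 2.34 and 2.16 in P18, against 1.59, 1.71, 1.46 and 1.77 in P15 and 1.72, 1.42, 1.41 and 1.89 in NP15. P18 was above both other groups on every array. The rise was 0.54 (SE 0.13, adjusted p = 0.0120) relative to NP15 and 0.52 (SE 0.13, adjusted p = 0.0150) relative to P15, and with quantile normalization the differences were 0.37 (adjusted p = 0.0588) and 0.35 (adjusted p = 0.0765). TXNDC12, a thioredoxin-fold protein of the endoplasmic reticulum, had 2.99, 2.997, 3.04 and 2.85 in P18, against 2.78, 2.53, 2.43 and 2.16 in P15 and 2.70, 2.44 and 2.44 in NP15, where the spot of replicate 4 was marked as an outlier and dropped. The groups did not overlap P18. The rise was 0.45 (SE 0.15, adjusted p = 0.0462) relative to NP15 and 0.50 (SE 0.14, adjusted p = 0.0216) relative to P15. The first TXNDC12 call was lost without any one of NP15 replicates 2 and 3, P15 replicates 2 and 3 and the 4 P18 arrays (0.40 to 0.48, adjusted p 0.0572 to 0.1269). The second was lost without P15 replicate 3 or P18 replicate 3 (adjusted p 0.0553 to 0.0557). Under the position adjustment the difference from NP15 was 0.28 (adjusted p = 0.067). With the marked spot kept, the TXNDC12 differences were 0.92 (adjusted p = 0.0873) and 0.50 (adjusted p = 0.359), and with quantile normalization 0.31 (adjusted p = 0.111) and 0.33 (adjusted p = 0.0766).

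ERP44, a chaperone that retains client proteins in the early secretory pathway, fell relative to NP15. It had -3.49, -3.48, -3.62 and -3.52 in P18, against -3.10, -3.09, -3.17 and -3.28 in P15 and -3.13, -3.28, -2.98 and -2.68 in NP15. P18 lay below both other groups on every array. ERP44 differed by -0.51 (SE 0.13, adjusted p = 0.0114) from NP15 and by -0.36 (SE 0.13, adjusted p = 0.0507) from P15, and the difference from P15 passed without NP15 replicate 2 or 4 (adjusted p 0.0111 to 0.0369) and with the position adjustment (-0.32, adjusted p = 0.0220). With median centring its difference from NP15 was -0.27 (adjusted p = 0.115), with quantile normalization -0.28 (adjusted p = 0.117) and with normexp -0.33 (adjusted p = 0.0599). TXNL4A and TXNL4B carry the thioredoxin fold but belong to the splicing machinery. TXNL4A had 2.54, 2.67, 2.66 and 2.52 in P18, against 2.41, 2.26, 2.13 and 2.26 in P15 and 2.30, 2.10, 2.11 and 2.48 in NP15. TXNL4B had -2.71, -2.92, -2.68 and -2.83 in P18, against -2.37, -2.50, -2.41 and -2.46 in P15 and -2.35, -2.46, -2.47 and -2.25 in NP15. In both genes P18 was separate from the other groups, higher for TXNL4A and lower for TXNL4B. TXNL4A rose by 0.35 (SE 0.11, adjusted p = 0.0350) relative to NP15 and by 0.33 (SE 0.11, adjusted p = 0.0426) relative to P15. Those calls were lost without any one of NP15 replicates 1 to 3, P15 replicate 2 and P18 replicates 1 to 3 in the first case (0.30 to 0.37, adjusted p 0.0508 to 0.0914). In the second they were lost without NP15 replicate 1, P15 replicates 2 to 4 or any P18 array (0.29 to 0.36, adjusted p 0.0572 to 0.1158). TXNL4B fell by 0.40 (SE 0.09, adjusted p = 0.00876) relative to NP15 and by 0.35 (SE 0.09, adjusted p = 0.0179) relative to P15. With median centring the TXNL4B differences were -0.16 (adjusted p = 0.223) and -0.12 (adjusted p = 0.367), and with quantile normalization -0.20 (adjusted p = 0.132) and -0.15 (adjusted p = 0.269). With quantile normalization those of TXNL4A were 0.21 (adjusted p = 0.136) and 0.16 (adjusted p = 0.271).

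The remaining 4 thioredoxin-fold genes, TMX4, TXNDC9, TXNDC10 and TXNL1, did not pass the threshold on all arrays. TXNDC9, a chaperonin-binding protein, had 1.19, 1.34, 0.49 and 1.23 in P18, against 0.94, 1.66, 1.59 and 1.64 in P15 and 0.48, 0.65, 1.39 and 0.87 in NP15. All groups overlapped, and P15 minus NP15 was 0.61 (SE 0.25, adjusted p = 0.499). TXNL1, which associates with the proteasome, ranged from 1.89 to 2.06 in P18, 1.62 to 1.70 in P15 and 1.69 to 2.07 in NP15. P18 minus P15 for TXNL1 was 0.29 (SE 0.10, adjusted p = 0.0521), and it passed without NP15 replicate 4 (0.29, adjusted p = 0.0134) and with the position adjustment (0.27, adjusted p = 0.0400).

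Glutaredoxins reduce disulfides at the expense of glutathione, and of the 2 tested GLRX2 rose relative to P15. GLRX, the cytosolic form, had -2.68, -2.70, -2.37 and -2.44 in P18, against -3.18, -3.08 and -3.38 in P15, where the spot of replicate 3 was marked as an outlier and dropped, and -3.13, -2.75, -3.13 and -4.17 in NP15. P18 was above every value of both other groups, and NP15 replicate 4 was the lowest. GLRX differed by 0.75 (SE 0.26, adjusted p = 0.0534) from NP15 and by 0.67 (SE 0.28, adjusted p = 0.103) from P15. Without NP15 replicate 4 the GLRX differences were 0.46 (SE 0.14, adjusted p = 0.0357) and 0.67 (adjusted p = 0.0062), and with the position adjustment they were 0.63 (adjusted p = 0.0044) and 0.78 (adjusted p = 0.0021). Without NP15 replicate 2 the difference from NP15 was 0.93 (adjusted p = 0.0251). GLRX2, the mitochondrial form, had 0.80, 0.39, 0.84 and 0.77 in P18, against 0.28, 0.33, 0.34 and 0.03 in P15 and 0.58, 0.39, 0.46 and 0.87 in NP15. P18 was above P15 on every array and overlapped NP15. GLRX2 rose by 0.46 (SE 0.14, adjusted p = 0.0331) relative to P15, and P15 minus NP15 was -0.33 (SE 0.14, adjusted p = 0.535). Its spot lay in row 188, and with the position adjustment those differences were 0.19 (adjusted p = 0.211) and 0.06 (adjusted p = 0.98). The GLRX2 call was also lost without any one of the 4 P15 arrays and P18 replicates 1, 3 and 4 (0.38 to 0.49, adjusted p 0.0513 to 0.0873).

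NQO1, which reduces quinones to hydroquinones with NADPH, fell in P18 relative to both other groups. It had -5.14, -5.68, -5.17 and -4.80 in P18, against -3.89, -3.82, -4.71 and -4.65 in P15 and -4.26, -3.91, -4.48 and -4.27 in NP15. P18 lay below all other values, and P15 fell into a higher pair and a lower pair of arrays. The fall was 0.97 (SE 0.25), or 1.96-fold, relative to NP15 with an adjusted p of 0.0131. Relative to P15, NQO1 fell by 0.93 (SE 0.25), or 1.91-fold, with an adjusted p of 0.0162. With normexp the NQO1 differences were -0.40 (adjusted p = 0.0996) and -0.42 (adjusted p = 0.0936), although the probe was well above background on all 12 arrays. NQO2, its relative, ranged from 3.68 to 4.15 in P18, 3.32 to 3.75 in P15 and 3.09 to 4.10 in NP15, and differed by 0.33 (SE 0.20, adjusted p = 0.241) between P18 and NP15. HMOX1, the inducible haem oxygenase, had 3.04, 3.28, 3.32 and 4.46 in P18, against 2.88, 2.87, 3.23 and 2.75 in P15 and 3.47, 3.68, 2.81 and 3.45 in NP15. Its P18 spread was the widest of any member in that group (SD 0.63), through replicate 4. HMOX1 did not pass, with 0.59 (SE 0.29, adjusted p = 0.156) for P18 minus P15 and -0.42 (SE 0.29, adjusted p = 0.774) for P15 minus NP15. HMOX1 and NQO2 passed in P18 against P15 with median centring.

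**Figure D4:**
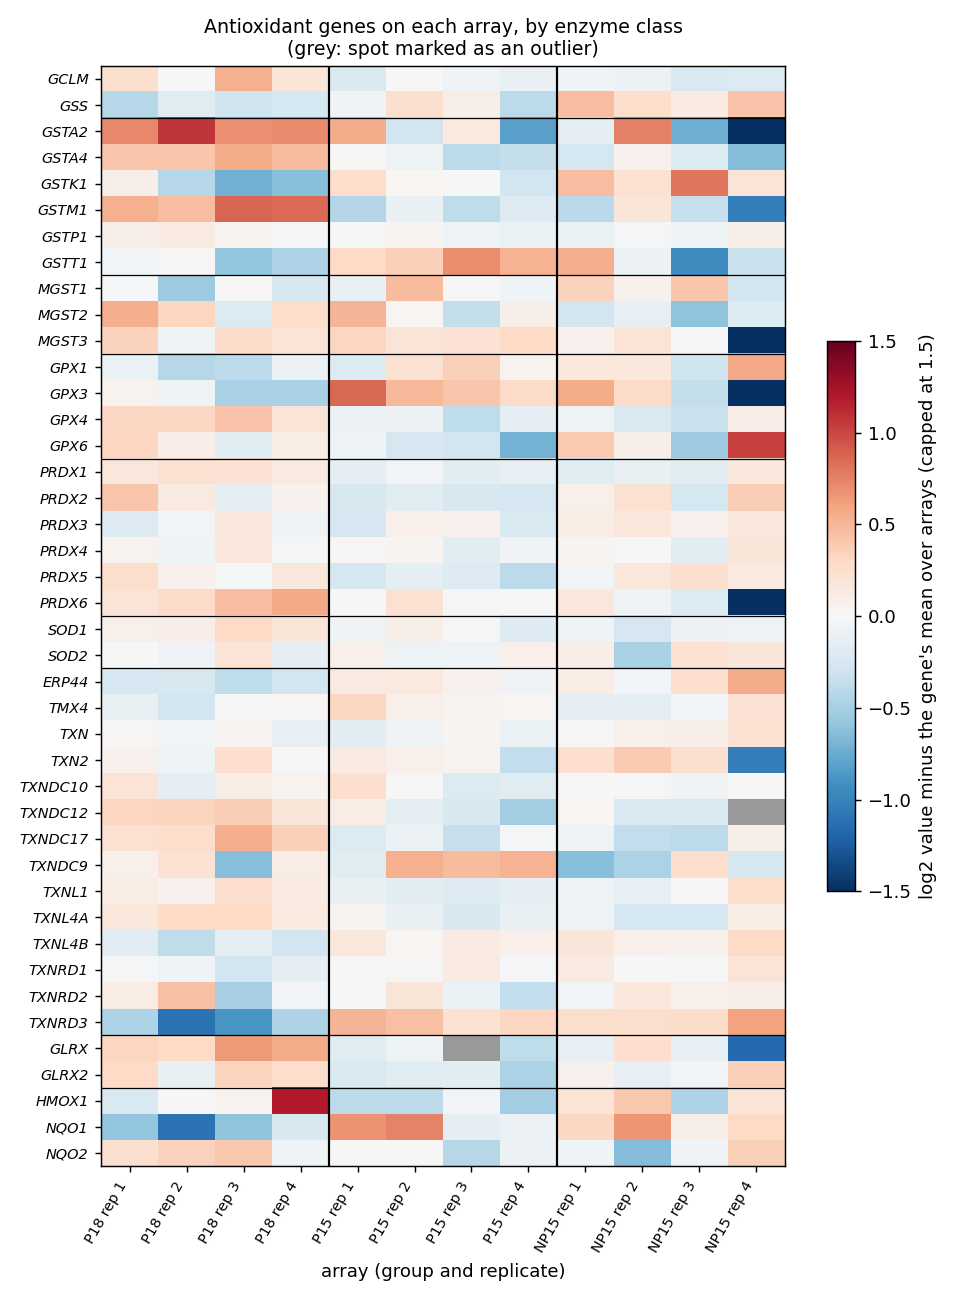
Each cell is the log2 value of a gene (y axis, by enzyme class) on an array (x axis) minus the mean of that gene over all arrays, on a scale that ends at 1.5 either way. P18 arrays are red for GSTM1, GSTA4 and GPX4 and blue for TXNRD3 and NQO1, and NP15 replicate 4 is dark blue for GSTA2, MGST3, GPX3 and PRDX6.

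Groups that did not overlap were counted beside the fits. P18 and NP15 were separate for 17 of 42 members, against 30.4% of all genes, and P18 and P15 for 20 of 42, against 34.7% of all genes. P15 and NP15 were separate for 2 of 42, GLRX2 and PRDX5, against 6.5% of all genes. Both lay in row 188. In rows 169 to 192 the median over 1564 genes of P15 minus NP15 was -0.25, against -0.05 in rows 25 to 168 and 0.08 in rows 1 to 24. Of the 42 tested members 8 lay in rows 169 to 192, 4 in rows 1 to 24 and 30 between. Of the 5 members with an unadjusted p under 0.05 in P15 against NP15, GSS, GLRX2 and PRDX5 were lower and lay in rows 182 to 188, and GSTT1 and TXNDC9 were higher. Across the 30 members of rows 25 to 168, 9 had passed in P18 against NP15 and 7 in P18 against P15, or 30% and 23.3%, beside 27.7% and 27.3% of the 9259 genes there. In P15 against NP15 none of the 30 had, beside 0.0648% of those genes.

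**Figure D5:**
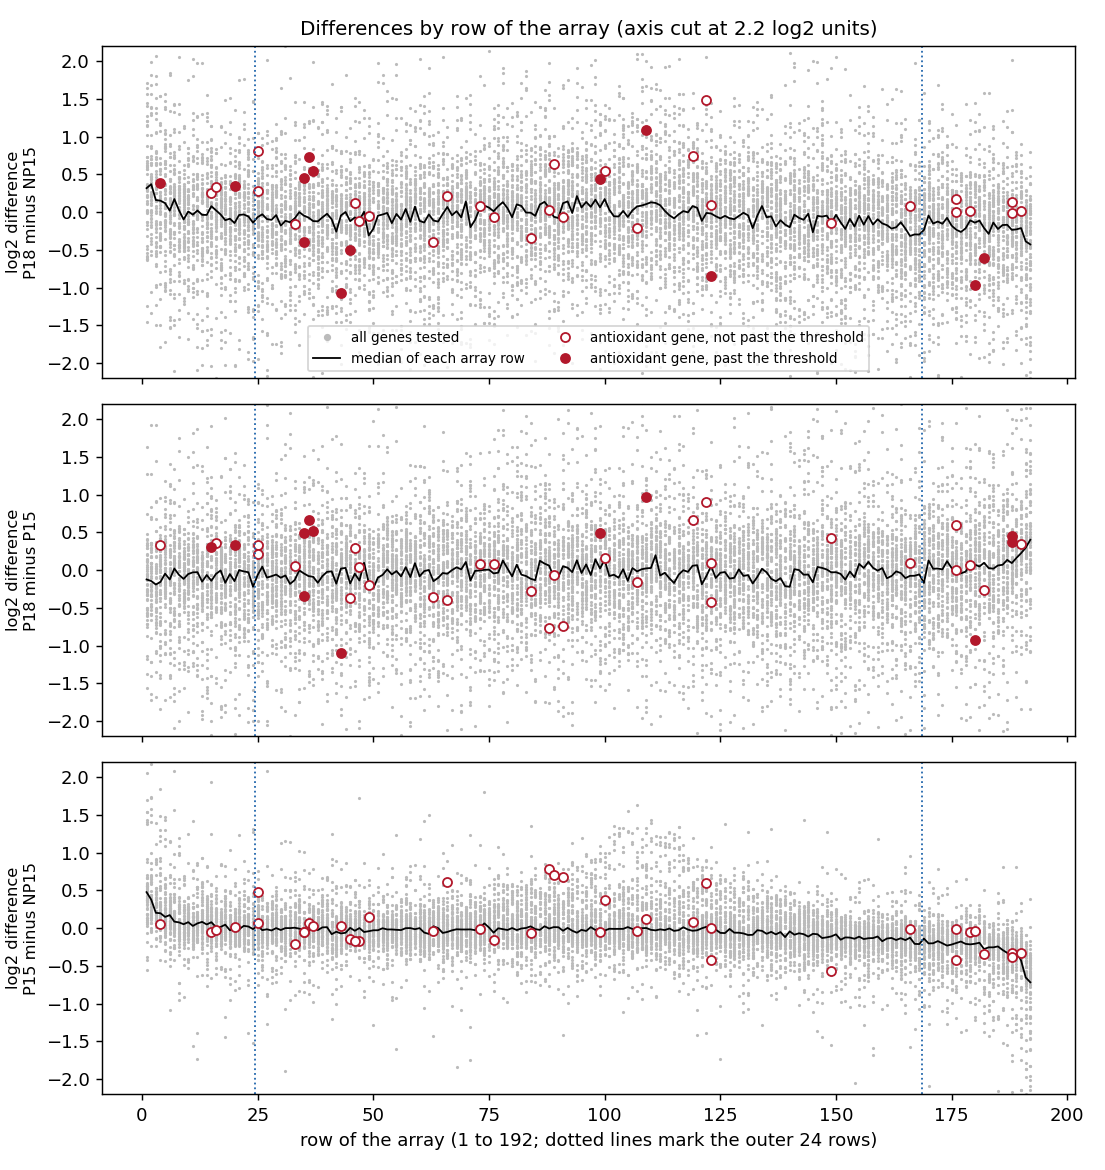
Log2 difference (y axis) against the row of the array (x axis) for P18 minus NP15, P18 minus P15 and P15 minus NP15, with all genes in grey, the median of each row as a line and antioxidant genes as circles, filled where past the threshold. In the lowest panel the line falls to -0.25 as a median over rows 169 to 192, and the 3 antioxidant genes GSS, PRDX5 and GLRX2 lie near it.

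Over all genes, 10.4% rose and 18.6% fell in P18 relative to NP15, and 12.8% rose and 15.5% fell relative to P15. The lists of genes and markers below were not tested against those shares, so their counts are not results about the lists. Of 13 tested genes of the NRF2 axis, 1 rose in P18 relative to NP15 and 3 rose relative to P15. NFE2L2, which encodes NRF2, averaged 1.81 ± 0.02 in P18, 1.39 ± 0.14 in P15 and 1.18 ± 0.18 in NP15 (SD, n = 4 each). It rose by 0.63 (SE 0.11, adjusted p = 0.0018) relative to NP15 and by 0.41 (SE 0.11, adjusted p = 0.0171) relative to P15. KEAP1, which holds NRF2 back, rose by 0.37 (SE 0.10, adjusted p = 0.0141) relative to P15. MAFG, a partner of NRF2, rose by 1.33 (adjusted p = 0.0007) relative to P15 and was lower in P15 than in NP15 by -1.19 (adjusted p = 0.0162), with a spot in row 191. Of 13 genes of NADPH and glutathione turnover, 2 rose and 2 fell relative to NP15 and 3 rose and 1 fell relative to P15. HAGH, which regenerates glutathione from its lactoyl thioester, rose by 0.71 (SE 0.10, adjusted p = 0.0004) relative to NP15 and by 0.89 (SE 0.10, adjusted p = 0.0001) relative to P15. The HAGH spot lay in row 14. CTH, which makes cysteine, fell by 0.59 (SE 0.14, adjusted p = 0.0111) relative to NP15 and by 0.63 (adjusted p = 0.0081) relative to P15. The CTH probe was dim, with means of -5.15 in P18, -4.53 in P15 and -4.57 in NP15. Whether its fall holds with normexp was not tested.

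Of 9 selenoproteins and selenium genes outside the antioxidant list, 1 rose and 1 fell relative to NP15, and 2 rose and 1 fell relative to P15. SELENOH rose by 0.76 (SE 0.23, adjusted p = 0.0295) relative to NP15 and by 0.69 (adjusted p = 0.0449) relative to P15. SELENOI, a phospholipid synthesis enzyme, fell by 0.82 (SE 0.15, adjusted p = 0.0018) relative to NP15 and by 0.53 (adjusted p = 0.0193) relative to P15. The SELENOI probe was dim, with means of -5.06 in P18, -4.53 in P15 and -4.24 in NP15, and lay in row 175. Whether its fall holds with normexp was not tested. MSRB1, a methionine sulfoxide reductase, rose by 0.86 (SE 0.22, adjusted p = 0.0142) relative to P15. Of 10 genes of thiol and methionine repair, 2 rose in both P18 comparisons. PARK7 rose by 0.49 (SE 0.11, adjusted p = 0.0078) relative to NP15 and by 0.52 (adjusted p = 0.0059) relative to P15. MSRA, methionine sulfoxide reductase A, with a spot in row 21, rose by 0.38 (SE 0.11, adjusted p = 0.0260) and 0.50 (adjusted p = 0.0070). Of 14 sources of reactive oxygen, only FDXR, which feeds electrons to the mitochondrial steroid P450 enzymes, passed, falling by 0.70 (SE 0.17, adjusted p = 0.0109) in P18 relative to NP15. The FDXR spot lay in row 186, and over all genes of rows 169 to 192 the median of P18 minus NP15 was -0.20. FDXR also differed by -0.55 (adjusted p = 0.281) between P15 and NP15. In P15 against NP15, MAFG was the only gene of these 5 lists past the threshold, beside 1.01% of all genes.

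Some markers of other cells also passed the threshold in P18, and their counts stand beside the same shares of all genes. Of 7 endothelial markers 3 fell in P18 relative to NP15 and relative to P15, namely PECAM1, CDH5 and VWF. Their NP15 means were -3.26, -3.22 and -5.03. VWF was well above background on 3 of 4 P18 arrays. The brighter TEK, KDR, ESAM and TIE1 did not pass, with differences from NP15 of -0.12, 0.06, -0.32 and -0.31. The sum over the 7 follows these brighter probes. In units of the 75th percentile signal it was 3.80 to 4.69 in P18, 4.99 to 5.44 in P15 and 4.35 to 5.88 in NP15. Of 6 fibroblast markers 3 fell likewise, namely COL1A1, COL1A2 and COL3A1. DCN, LUM and PDGFRA did not pass, with differences from NP15 of -0.09, -0.02 and 0.20. The sum over the 6 was 54.9 to 68.1 in P18, 71.4 to 87.5 in P15 and 73.4 to 85.7 in NP15. Of 4 red blood cell markers 1, ALAS2, rose in both P18 comparisons. The sum over the 4 was 0.52 to 0.72 in P18, 0.38 to 0.44 in P15 and 0.40 to 0.51 in NP15. It follows the brightest probe, ALAS2, with means of -0.87 in P18, -1.41 in P15 and -1.36 in NP15. HBA and HBG were each well above background on 1 of 4 P18, 0 of 4 P15 and 3 of 4 NP15 arrays. HBA, HBG and AHSP did not pass, so the sum is not a measure of red blood cells. The smooth muscle marker ACTA2, 1 of 4 tested for pericytes and smooth muscle, fell by 1.88 (adjusted p = 0.0015) relative to NP15 and by 1.69 (adjusted p = 0.0029) relative to P15. The ACTA2 spot lay in row 183. Of 5 myeloid markers CD68 rose relative to P15 (0.99, adjusted p = 0.0393), and of 5 T cell markers CD2 rose relative to NP15 (1.03, adjusted p = 0.0255). Of 3 B and plasma cell markers MS4A1 passed relative to P15 (1.09, adjusted p = 0.0045). The MS4A1 probe was well above background on 0 of 4 P18 arrays and 1 of 4 P15 arrays. It was kept through NP15, so neither the size of that difference nor a rise of B cells can be read from it. The platelet marker and the 5 follicle markers passed no test. Of 8 luteal markers 1 rose and 2 fell in P18 relative to NP15, and 2 rose and 1 fell relative to P15. HSD3B1, a steroid dehydrogenase with a spot in row 192, fell relative to NP15 (-0.70) and rose relative to P15 (0.77), and was lower in P15 than in NP15 (-1.47, adjusted p = 0.0009). The luteal sum was 373.4 to 469.8 in P18, 403.6 to 531.8 in P15 and 514.6 to 655.0 in NP15. Such a sum is weighted towards its brightest probes. HSD3B1 was among them, with a mean of 7.56 in NP15 and 6.10 in P15, so the luteal sum is not a measure of luteal cell content. The part of cell makeup in the antioxidant differences was not tested.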

How the data were processed

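Each of 12 one-colour Agilent arrays came as a scanner file of spot intensity values, deposited by the authors. Feature Extraction 9.5 is named in the submitters' processing notes, and the headers give 9.5.1.1. According to those headers the software had subtracted the background and a spatial trend within each array. No genome build was named in what was read here. The authors' deposited value table holds log2 values, which equalled the log2 processed signal less a constant for each array, so its scale and direction are known, and it served as an alternative. Log2 processed signals were scaled to the 75th percentile of each array, control spots and spots marked as outliers were left out, and probes were kept if well above background on at least 3 of 4 arrays of a group. That left 12605 probes, and the brightest kept probe stood for a gene. Group means were fitted with limma 3.58.1 in R 4.3.3 on all 12 arrays, with moderated two-sided tests and Benjamini-Hochberg adjustment. The fit was checked on simulated data. The number of arrays limits the precision.

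Names came from the scanner files and were updated through a RefSeq table, which named 7069 of 15208 probes by accession, gene number, symbol, older symbol or description. TXNDC17, TXNDC12, ERP44 and TMX4 stand in the files under older symbols. GSTM1 and GSTP1 keep the files' names, though their accessions belong to unnamed loci in RefSeq. Probe sequences are those of the scanner files. The named genes are all members past the threshold, the member of each class with the smallest p in each comparison, members with 2 kept probes, and up to 2 called genes per other list, plus members that stood out after their values were seen. The members and lists were chosen with earlier results of these data known. Replicates were different animals, and p-values measure the spread between them. Alternatives were the background correction, scaling, filter, outlier spots, probe rule, position, the arrays fitted, a replicate block and each array left out. A promoter motif search was not run because no promoter sequences were used here.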

Additional observations from a re-analysis of the deposited data

Results flagged for a closer look

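Over the tested antioxidant genes, 124 sets of 4 arrays were examined for a lone array far from the other 3, and 10 had one, where chance gives about 6.2 (1 in 20). On NP15 replicate 4, TXNRD3 was at -4.38 against -4.73 to -4.71 on the other NP15 arrays, MGST3 at 0.62 against 2.69 to 2.89, and TXN2 at 0.85 against 2.13 to 2.28. The MGST3 and TXN2 spots lay in the dim patch of that array, where their neighbours had median deviations of -1.62 and -0.97, and the neighbours of the TXNRD3 spot had one of 0.47.

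In P15, TXN2 was at 1.51 on replicate 4 against 1.94 to 2.01, TMX4 at -3.19 on replicate 1 against -3.48 to -3.44, TXNDC9 at 0.94 on replicate 1 against 1.59 to 1.66, and PRDX6 at 3.52 on replicate 2 against 3.26 to 3.30. In P18, replicate 2 was apart for GLRX2, at 0.39 against 0.77 to 0.84, and for GSTA2, at 3.87 against 3.49 to 3.52, though the neighbours of the GSTA2 spot were lower there, with a median deviation of -0.31. In NP15, SOD1 was at 3.56 on replicate 2 against 3.72 to 3.75. GLRX2 passed between P18 and P15 with and without P18 replicate 2.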

How the results depend on the processing

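Over the 24 alternatives, GSTM1, GSTA4 and GPX4 kept their calls in both P18 comparisons. TXNRD3 and GSTK1 left the test when probes had to be above background on all 12 arrays. The number of antioxidant genes past the threshold in P15 against NP15 was 0 under every alternative. In P18 against NP15 it was 8 of 42 with quantile normalization, beside 29.9% of all genes. When only rows 25 to 168 were fitted (chosen after seeing the data), it was 8 of 30, where 9 of the same 30 had passed with all rows. Of all genes fitted in those rows 26.8% passed. With 1 array left out it was 10 to 16 of 42, beside 23.1% to 32.0% of all genes. In P18 against P15 it was 19 of 42 with median centring, beside 34.2% of all genes. For rows 25 to 168 alone it was 7 of 30, beside 26.9% of all genes fitted there, where 7 had passed with all rows. With 1 array left out it was 8 to 17 of 42, beside 22.9% to 35.2% of all genes. In both comparisons the highest count with 1 array left out was that without NP15 replicate 4. GSTK1 in P18 against NP15 reversed with normexp, to 0.040. Over all genes, calls in P15 against NP15 numbered 71 with normexp, 45 with the position adjustment, 58 on the 8 arrays of the pair (the shared slide), 0 in rows 25 to 168 alone (391 at an unadjusted p under 0.05), and 62 to 115 with 1 array left out, against 124. Without the filter on dim probes 5374 genes passed in P18 against NP15 and 5299 in P18 against P15. With 1 array left out these counts were 2842 to 3935 and 2822 to 4329. Same-numbered samples lay in the same slide column, and the labels do not say that the numbers pair animals. Correlations of their deviations from the group means were -0.044 to 0.294, and some but not all samples were closest to their own number. With the replicate number as a block, 71, 3502 and 3442 genes passed in P15 against NP15, P18 against NP15 and P18 against P15, and 0, 13 and 8 antioxidant genes. In P18 against NP15 the block added calls for GSTA2 and MGST2 and ended those of GCLM and TXNL4A. In P18 against P15 it ended the calls of GLRX2, PRDX1, PRDX5 and TXNL4A. Where a call ended, the cause was not tested. Dim probes limit what can be said of GSTK1 and TXNRD3 in P18, and slide and group cannot be told apart there.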

Other observations

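Enzymes close to the antioxidant list appeared under clone names. A probe described as similar to catalase, the peroxisomal enzyme that splits hydrogen peroxide, averaged 3.41 ± 0.16 in P18, 2.88 ± 0.24 in P15 and 2.71 ± 0.46 in NP15 (SD, n = 4 each). It rose in P18 relative to NP15 by 0.70 (SE 0.21, limma adjusted p = 0.0301) and differed by 0.54 (adjusted p = 0.0834) from P15. On NP15 replicate 4 this probe was at 2.05, against 2.86, 2.84 and 3.11 on NP15 replicates 1 to 3. Its spot lay in row 94, within the rows of the dim patch of that array. The rise relative to NP15 was not tested without that array. A probe described as similar to a mu-class glutathione transferase averaged 4.77 ± 0.25 in P18, 4.09 ± 0.14 in P15 and 4.00 ± 0.46 in NP15. It rose by 0.77 (SE 0.21, adjusted p = 0.0193) and 0.68 (adjusted p = 0.0340), beside the rise of GSTM1, and whether both probes bind 1 transcript was not tested. A probe described as similar to the constitutive haem oxygenase averaged 0.12 ± 0.30 in P18, -0.08 ± 0.16 in P15 and 0.31 ± 0.43 in NP15 and passed no test.

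Among the probes of the 45 antioxidant spots, 10 held the letters AATAAA as printed, or 22.2%, against 11.3% of all 15208 probes. On either strand 12 held them, or 26.7%, against 14.9%.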
